A study of Rattus norvegicus with 15 samples.

Results

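The change of normal rat liver from weaning to late adult life was followed on 6 of the 15 arrays of a study of calorie restriction around birth. The 6 arrays were chosen by their labels alone: 3 livers taken at day 21 of life and 3 taken at day 450, all from male Sprague-Dawley rats whose mothers ate a control diet without restriction in pregnancy and lactation. Each array holds the liver RNA of 1 rat, and the replicates, lettered A, B and C, are separate littermates. The number of litters and the time of day and feeding state at collection are not stated in the sources used here. The p-values therefore speak for these rats and no wider. The spread behind them was estimated from all 15 arrays, including those of restricted rats. The other arrays used below are IPCR rats (intrauterine and postnatal calorie restriction), whose mothers received 50% fewer calories from mid-gestation to birth and again while nursing, with 3 arrays at day 21, when restriction was ending, and 3 at day 450. The remaining 3 arrays, day 450 offspring restricted before birth only (IUCR), enter the estimate of spread and 1 plot.

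At weaning the rat liver is still growing, has only recently stopped serving as a site of blood formation, and is moving from the fat of milk to a diet of carbohydrate. Puberty then gives the liver its sexual character. In male rats growth hormone is secreted in widely spaced pulses, and these are known to turn on male-specific cytochromes P450 and urinary proteins in hepatocytes, while female-specific genes are held down. The same organ also runs a daily clock in which BMAL1 and its partners drive the PER, REV-ERB and DBP genes, which feed back on BMAL1.

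Across 14506 named genes, 1434 (9.89%) differed between day 450 and day 21 at an adjusted p below 0.05 in limma, a linear model with moderated variances, with 677 higher (4.67%) and 757 lower (5.22%) at day 450. Most differences were small: the median absolute log2 change was 0.10 and the 90th percentile 0.36, against a median standard error (SE) of 0.096. A further requirement of more than 2-fold left 107 genes that rose (0.738%) and 109 that fell (0.751%), of which 29 and 21 passed 4-fold and 13 and 8 passed 8-fold. All 3 arrays of 1 age lay beyond all 3 of the other for 4066 genes (28.0%). Between 2 control arrays of different age the correlation across genes was 0.974 to 0.979, below the 0.993 to 0.995 within day 21 and the 0.990 to 0.993 within day 450. Leaving out each control array in turn gave 1025 to 1164 genes instead of 1434. Levels below are log2 intensities after robust multi-array averaging, listed in the order A, B, C, and a change is day 450 minus day 21 on that scale. Counts of list members below are to be read beside the 4.67% of all genes that rose and the 5.22% that fell. The lists were chosen with earlier results of these data known, so a count above those shares is a description and no test of a list. In whole liver, fewer cells of a type and less RNA per cell cannot be told apart.

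The hepatocyte character of the samples was plain at both ages. The mean level of 12 hepatocyte markers was 12.99 to 13.38 at day 21 and 13.13 to 13.22 at day 450, where the median of a control array lay between 7.14 and 7.21. The mean of 9 markers of pancreatic acinar cells was 6.89 to 7.07 over the 6 arrays, and that of 7 adipocyte markers 6.80 to 6.88, both below every array median. Albumin (Alb, chosen after its values were seen) gave 14.72, 14.72 and 13.99 at day 21 and 14.61, 14.64 and 14.67 at day 450. Its ages overlapped, and it did not pass (change 0.17, SE 0.14, adjusted p = 0.544). Of the 12 hepatocyte markers 1 passed, Cyp2e1, which fell by 0.52 (fell by 0.33 without day 450 replicate A) and lost its call without any 1 of 3 control arrays (adjusted p up to 0.164 over all settings). Of the acinar and adipocyte markers 0 passed in limma (0 and 1 at an unadjusted p below 0.05). Among 8 mast cell markers only Hdc, which makes histamine, passed (0.88, SE 0.11), and among 5 megakaryocyte and platelet markers only the integrin Itgb3 (-0.63, adjusted p = 3.6e-04).

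**Figure D1:**
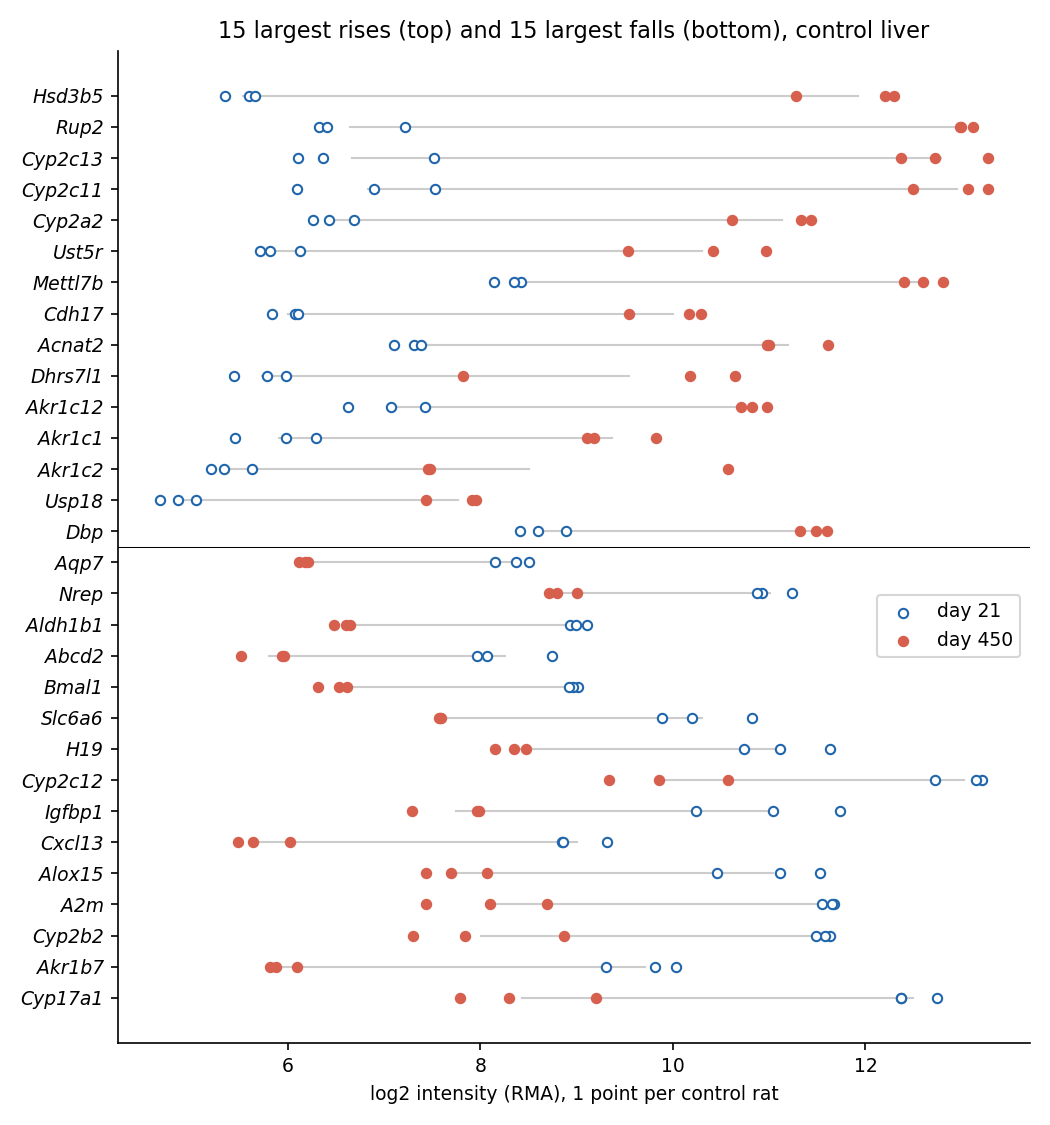
Log2 intensity on the 6 control arrays for the 15 largest rises (top) and 15 largest falls (bottom), 1 point per rat, open for day 21 and filled for day 450, with a line joining the means. Only genes that passed and whose ages did not overlap could enter, so the separation of the ages is a condition of the choice. Dhrs7l1 and Akr1c2 each have 1 day 450 rat apart from the others, at 7.82 and 10.58.

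Large rises were measured in genes of the male program of the adult liver. Among 10 measured male-biased genes 8 rose and 0 fell, with a median change of 4.23 against 0.01 over all genes. Hsd3b5, a hydroxysteroid dehydrogenase isoform, went from 5.60, 5.34 and 5.66 to 12.29, 12.20 and 11.28, an 84.0-fold rise (change 6.39, SE 0.55, adjusted p = 1.89e-06). The day 21 values lay below the lower quartile of the control arrays, 6.04 to 6.14, so the fold rests on values that may be background. Cyp2c11, the main male cytochrome P450, which hydroxylates steroids, went from 7.52, 6.89 and 6.10 to 13.27, 13.07 and 12.50 (change 6.11, SE 0.39, adjusted p = 9.25e-08). Cyp2c13, of the same family, rose by 6.13 (SE 0.31), Rup2, a urinary protein, by 6.38 (SE 0.23), and Cyp2a2, a steroid hydroxylase, by 4.67 (SE 0.60). Akr1c12, an aldo-keto reductase, rose by 3.80 (SE 0.29) and Mup5, which carries pheromones in urine, by 1.94 (SE 0.37). Day 450 replicate C was the lowest of its age in every one of these 7 genes, and the mean of the male-biased list was 12.03, 11.87 and 11.21 at day 450 against 8.21, 8.14 and 8.01 at day 21. With C left out 8 genes still rose. Cyp3a18, the eighth, lost its call without any 1 of 5 control arrays (adjusted p up to 0.123). Car3 (carbonic anhydrase), also counted as male-biased and named after its values were seen, overlapped between the ages at 11.90, 12.50 and 12.39 against 12.62, 11.81 and 11.51.

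Genes that adult males hold low fell in part. In the female-biased list, 5 of 9 measured members fell and 1 rose (median change -0.67), 4 to 5 and 0 to 2 when 1 control array was left out. Cyp2c12, the female-specific steroid sulfate hydroxylase, was at 13.21, 13.15 and 12.73 at weaning and at 9.86, 9.34 and 10.57 at day 450, an 8.62-fold fall (change -3.11, SE 0.60, adjusted p = 0.0030). Its 3 day 450 rats again had C nearest to the day 21 level. Cyp17a1, the hydroxylase and lyase of steroid synthesis, had the largest fall among genes that passed with no overlap, from 12.37, 12.74 and 12.37 to 8.30, 7.79 and 9.20 (change -4.07, SE 0.32, adjusted p = 7.69e-07). Akr1b7, an aldose reductase family member, fell by 3.79 (SE 0.45) and Cyp2a1, a testosterone hydroxylase, by 0.67 (SE 0.11). A1bg fell by 0.53, a call lost under 8 alternative settings. Without day 21 replicate A it fell by 0.33 (adjusted p = 0.216 in limma). Hao2, an oxidase of long-chain hydroxy acids, went the other way by 1.47 (SE 0.38), and its call was lost without any 1 of 4 control arrays (adjusted p up to 0.0816). Cyp2c11, Cyp2c12 and Cyp2c13, like other members of close families, may share probes, so the split of signal within the family is uncertain.

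Several large rises lay outside those lists. Mettl7b, a methyltransferase of the endoplasmic reticulum, was at 8.43, 8.35 and 8.14 at day 21 and at 12.60, 12.81 and 12.40 at day 450 (change 4.29, SE 0.13, adjusted p = 2.39e-11). Cdh17, the liver-intestine cadherin, rose by 3.998 (SE 0.25), Acnat2, a peroxisomal acyl-CoA N-acyltransferase, by 3.93 (SE 0.23), and Ust5r, a transporter of the organic anion family, by 4.42 (SE 0.50). Young and old rats were far apart in all 4 genes. In 2 others a single rat stood apart. Akr1c2 was at 7.45, 7.48 and 10.58 at day 450 against 5.63, 5.20 and 5.34, and its change of 3.11 was 2.08 without replicate C (adjusted p = 0.0213). Dhrs7l1, a short-chain dehydrogenase relative, was at 10.64, 10.18 and 7.82 against 5.79, 5.98 and 5.44, and there C was the lowest old rat, so that the change of 3.81 was 4.67 without it. Akr1c1, next to Akr1c2 in the genome, showed no such rat, at 9.18, 9.82 and 9.11 against 6.29, 5.98 and 5.45.

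Of 20 growth hormone and insulin-like growth factor genes, which set body growth, 2 rose and 5 fell (median -0.08, and -0.17 to -0.03 with 1 control array left out, the ends without day 21 replicates B and A). The counts were 1 to 3 and 3 to 4 when 1 control array was left out. Igfbp1, which binds insulin-like growth factors and is high in fetal liver and in fasting, went from 11.74, 10.24 and 11.04 to 7.96, 7.99 and 7.29 (change -3.26, SE 0.51, adjusted p = 6.30e-04). Ghr, the growth hormone receptor, rose by 0.56 (SE 0.10), and Stat5b, which carries its signal to the nucleus, fell by 0.57 (SE 0.10). Igfbp7 fell by 0.54 (adjusted p = 0.0038). Igfbp2, high in fetal liver, fell by 0.94 (SE 0.22), a call lost without day 21 replicate A or C (adjusted p up to 0.0646). Igf1 itself, chosen after its values were seen, overlapped between the ages at 13.30, 13.05 and 12.84 against 12.86, 12.90 and 13.11 and did not pass (change -0.11, SE 0.10, adjusted p = 0.602).

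**Figure D2:**
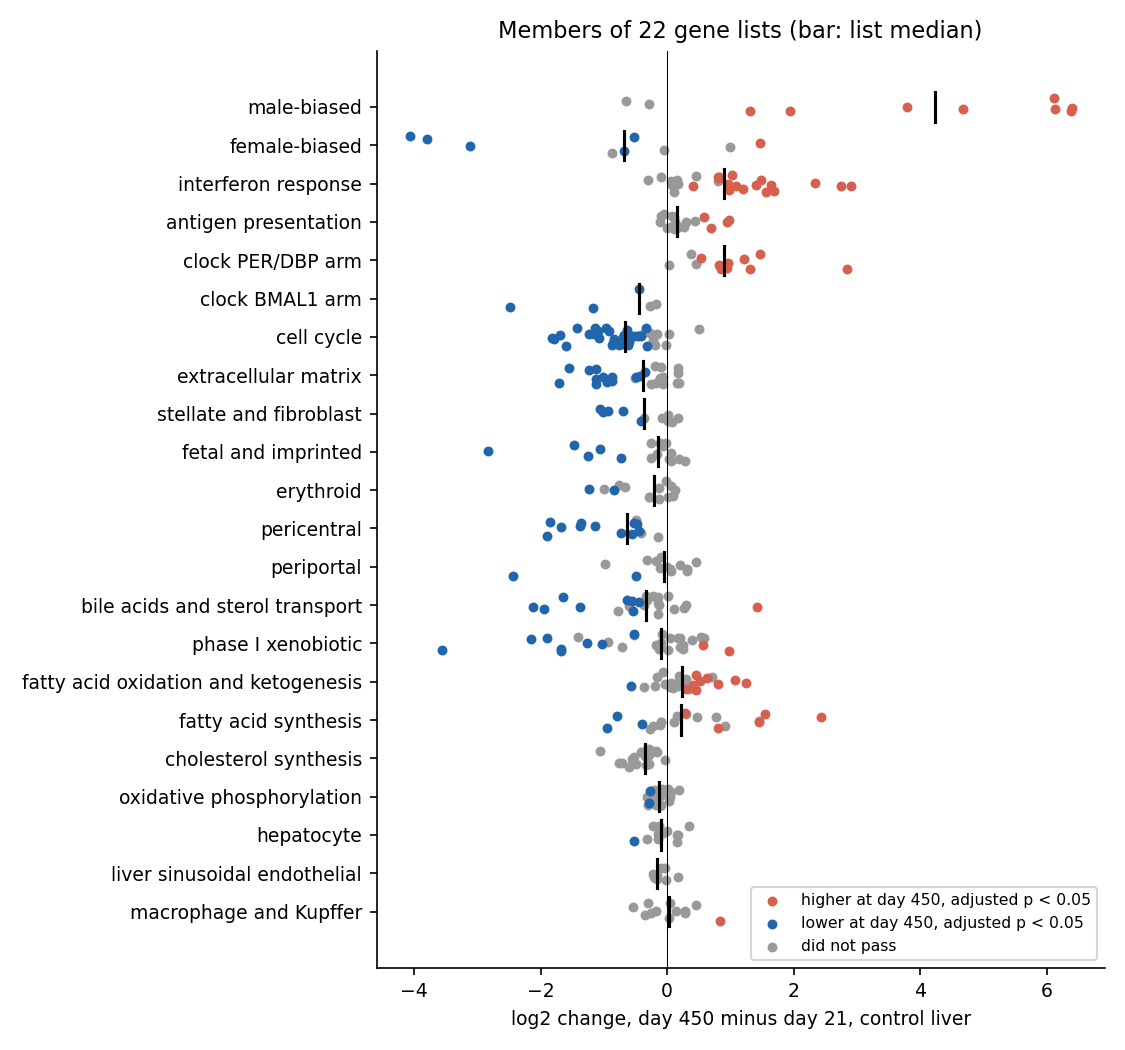
Log2 change from day 21 to day 450 in control liver (x axis) for the measured members of 22 gene lists (rows), red where higher and blue where lower at an adjusted p below 0.05, grey where the test was not passed, with a bar at the list median. Male-biased, interferon and PER/DBP genes lie to the right, with medians of 4.23, 0.89 and 0.90, and cell cycle, pericentral and extracellular matrix genes to the left, with medians of -0.66, -0.64 and -0.39.

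Rises were also measured in interferon response genes, which cells switch on when they sense viral nucleic acid or interferon itself. Of 26 measured, 17 rose and 0 fell, 11 of them more than 2-fold, and the median change was 0.89. With any 1 control array left out 16 or 17 rose. The mean of the list was 7.22, 7.43 and 7.40 at day 21 and 8.20, 8.41 and 8.36 at day 450, so each old rat lay above each young one. Usp18, which strips ISG15 from proteins and damps interferon signalling, went from 4.67, 4.86 and 5.04 to 7.43, 7.95 and 7.92 (change 2.91, SE 0.22, adjusted p = 4.36e-07), from below the lower quartile of the arrays to above their median. Mx2, a GTPase that blocks viruses, went from 7.10, 7.62 and 7.25 to 9.69, 9.9999 and 10.52 (change 2.75, SE 0.27). Oas1a, a sensor of double-stranded RNA, went from 5.96, 6.72 and 6.25 to 8.50, 8.64 and 8.78 (change 2.34, SE 0.21, adjusted p = 2.48e-06).

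The regulators of the response were among the risers. Irf7, the transcription factor that amplifies interferon production, was at 7.55, 7.41 and 7.44 and then at 8.89, 9.10 and 9.35 (change 1.64, SE 0.17). Irf9, the DNA-binding part of the complex formed after interferon binds its receptor, went from 8.14, 8.22 and 8.14 to 9.27, 9.27 and 9.25 (change 1.10, SE 0.10) and rats of 1 age lay close together. The RNA sensors Rig1 and Dhx58 rose by 1.03 (SE 0.12) and 0.96 (SE 0.09), and Ifi44, an interferon-induced protein of unclear function, by 0.82 (SE 0.09).

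Promoter sequences are shown for 3 of these genes because the response is known to run through a short DNA element. RefSeq promoters (GRCr8) were available for 11951 genes, and the 250 bases before each start site were searched on both strands for the core of the interferon-stimulated response element, GAAANNGAAA. It was present in 11 of 19 measured interferon genes with a promoter (57.9%), against 3.10% of all promoters. Among all genes that rose it was present in 33 of 545 (6.06%), and among all that fell in 13 of 621 (2.09%). The capitals below mark each match, which on the opposite strand reads TTTCNNTTTC. Oas1a is at chr12:41330385-41330465 on the plus strand with 2 overlapping matches ending 26 bases before the start, Irf7 at chr1:205800043-205800132 on the minus strand with its match 60 bases before it, and Ifi44 at chr2:243303841-243303906 on the minus strand with its match 17 bases before it. A match is a description of the sequence and not a measured binding site.
Oas1a: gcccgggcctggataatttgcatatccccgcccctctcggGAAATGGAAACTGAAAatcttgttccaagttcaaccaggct
Irf7: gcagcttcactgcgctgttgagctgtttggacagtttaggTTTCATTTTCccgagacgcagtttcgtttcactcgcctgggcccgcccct
Ifi44: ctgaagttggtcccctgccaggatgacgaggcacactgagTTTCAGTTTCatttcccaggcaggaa

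Of 19 antigen presentation genes 4 rose and 0 fell (median 0.16, but 0.08 without day 21 replicate A and 0.26 without day 21 replicate C). These were Tap1, which carries peptides into the endoplasmic reticulum (change 0.95, SE 0.12), the immunoproteasome subunits Psmb8 (0.98, SE 0.14) and Psmb9 (0.69, SE 0.15), and B2m, the light chain of class I molecules (0.58, SE 0.10). B2m was at 12.56, 12.87 and 12.75 at day 21 and at 13.27, 13.26 and 13.39 at day 450, with no overlap. Markers of the immune cells that could carry such genes were measured beside them. Of 17 T and NK cell markers 0 passed in limma (3 at an unadjusted p below 0.05), with list means of 6.60 to 6.77 at day 21 and 6.77 to 6.82 at day 450. Of 12 neutrophil markers 0 passed in limma (0 unadjusted), with means of 6.36 to 6.44 and 6.35 to 6.48. Among 12 macrophage and Kupffer markers only Lyz2, a lysozyme of myeloid cells, passed (change 0.83, SE 0.17), and the means were 8.66 to 9.21 at day 21 and 8.87 to 9.22 at day 450. Of 8 B and plasma cell markers only Jchain, which joins secreted antibodies, passed, going from 4.96, 5.09 and 5.43 to 6.11, 6.07 and 6.54 (change 1.08, SE 0.15), and the means were 6.29 to 6.42 and 6.40 to 6.59. The part of these cells in the interferon result was not tested.

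Of 24 inflammatory mediators 1 rose and 3 fell (median 0.06, and 0.0063 without day 450 replicate B), 1 to 2 and 1 to 3 when 1 control array was left out. Cxcl13, a chemokine that attracts B cells, fell from 8.85, 8.86 and 9.31 to 5.49, 5.63 and 6.03, a 9.79-fold fall (change -3.29, SE 0.21, adjusted p = 1.05e-07). Icam1, an adhesion molecule, rose by 0.53 (SE 0.11). The other 2 falls, Il18 and Vcam1, each lost their call without replicate B or C of either age (adjusted p up to 0.131 and 0.214 over all settings).

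Cell division genes, the list with the most measured members, gave more falls by count than any other list. Pericentral genes fell in a similar share, 11 of 14. Of 40 cell division genes measured, 31 fell and 0 rose, 10 of them more than 2-fold, with a median change of -0.66. The list mean was 7.14, 7.17 and 7.41 at day 21 and 6.49, 6.56 and 6.51 at day 450, and 24 to 27 genes fell when 1 control array was left out. Top2a, the topoisomerase that untangles replicated DNA, went from 7.97, 8.21 and 8.44 to 6.25, 6.499 and 6.53 (change -1.78, SE 0.17, adjusted p = 6.35e-06). Rrm2, which makes deoxynucleotides for replication, went from 7.82, 8.29 and 8.48 to 6.58, 6.48 and 6.44 (change -1.69, SE 0.25). Of these rats the day 21 replicate C had the highest level of both genes. Falls were also measured for Pbk, a mitotic kinase (-1.83, SE 0.20), Cdkn3, a phosphatase of cyclin-dependent kinases (-1.42, SE 0.23), Nusap1 and Prc1, which bundle spindle microtubules (-1.14 and -0.84), Ccnb1, cyclin B1 of mitotic entry (-1.09), and Mcm6, part of the replicative helicase (-1.08).

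Promoters of 3 of these genes are printed because the CCAAT box is a known element of cell cycle promoters. The letters CCAAT, or ATTGG on the other strand, were present within 250 bases before the start of 19 of 29 measured cell cycle genes with a promoter (65.5%), against 35.6% of all promoters. The cell cycle homology region, TTTGAA on either strand, was present in 8 of 29 (27.6%) against 13.9%, and in 4 of 8 female-biased genes (50.0%) but 0 of 11 PER/DBP arm genes. Among the 24 genes of the list that fell and have a promoter, 17 held a CCAAT box (70.8%). The stretches below, with each CCAAT box in capitals, lie at chr2:33655231-33655347 on the minus strand (Ccnb1, 2 boxes), chr15:22502216-22502385 on the plus strand (Cdkn3, 3 boxes) and chr13:42404353-42404478 on the minus strand (Mcm6, 2 boxes), in RefSeq GRCr8. In Ccnb1 the last box ends 46 bases before the start, in Cdkn3 25 and in Mcm6 39.
Ccnb1: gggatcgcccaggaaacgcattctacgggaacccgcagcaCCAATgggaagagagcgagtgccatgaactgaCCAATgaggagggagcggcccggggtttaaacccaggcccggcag
Cdkn3: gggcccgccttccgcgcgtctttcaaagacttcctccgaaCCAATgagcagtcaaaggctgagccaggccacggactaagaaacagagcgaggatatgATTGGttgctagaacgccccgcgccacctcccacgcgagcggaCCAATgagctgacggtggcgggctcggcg
Mcm6: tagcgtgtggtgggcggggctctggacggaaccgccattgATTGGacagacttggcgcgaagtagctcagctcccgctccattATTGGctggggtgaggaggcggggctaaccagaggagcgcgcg

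Of 14 erythroid genes, which blood-forming cells in young liver express, 2 fell and 0 rose (median -0.20), and the list mean was 7.66, 7.88 and 7.79 at day 21 and 7.31, 7.55 and 7.39 at day 450. Ahsp, which stabilises free alpha globin, went from 5.37, 6.28 and 5.67 to 4.49, 4.88 and 4.25 (change -1.24, SE 0.22), with the old rats well below the lower quartile of the arrays. Slc4a1, the anion exchanger of red cells, fell by 0.84 (SE 0.17). Globin Hbb overlapped between the ages and did not pass (change -0.67, SE 0.31, adjusted p = 0.216). The part of erythroid cells in the fall of cell division genes was not tested.

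Brakes on division and the p53 targets gave a mixed picture. Among 12 measured, 3 rose and 2 fell (median 0.20), 2 to 3 and 1 to 2 when 1 control array was left out. Ccng1, a cyclin induced by p53, rose from 8.998, 9.02 and 8.85 to 10.51, 10.26 and 10.15 (change 1.35, SE 0.13, adjusted p = 7.03e-06). Mdm2, the ligase that degrades p53 and is its target, rose by 0.89 (SE 0.19), while Sesn1, another p53 target, fell by 0.58 (adjusted p = 0.0012). The calls of Gadd45a (0.86) and Cdkn2c (-0.56) were lost without any 1 of 5 and of 2 control arrays (adjusted p up to 0.158 and 0.0638). Cdkn2a, which encodes p16, did not pass (change 0.20, adjusted p = 0.359).

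Of 16 fetal liver and imprinted genes 5 fell and 0 rose (median -0.14, and -0.21 without day 450 replicate C). H19, an imprinted RNA abundant in fetal liver, went from 11.11, 10.74 and 11.64 to 8.16, 8.48 and 8.35, a 7.13-fold fall (change -2.83, SE 0.19, adjusted p = 1.21e-07). Mest, expressed from the paternal allele, went from 8.67, 8.65 and 8.65 to 7.21, 7.08 and 7.28 (change -1.47, SE 0.10). Afp, the fetal counterpart of albumin, was at 8.89, 8.55 and 9.53 and then at 7.65, 7.69 and 7.90 (change -1.24, SE 0.20). In all 3 genes the ages were apart, and replicate C was the highest of the day 21 rats for H19 and Afp. Meg3, a maternally expressed RNA, fell by 1.07 (SE 0.21) and Grb10, an adaptor that restrains insulin and growth factor receptors, by 0.73 (SE 0.11). Zhx2, a repressor of Afp and H19 after birth, rose from 7.999, 8.07 and 7.91 to 8.90, 8.69 and 8.70 (change 0.77, SE 0.10). In its list of 14 hepatocyte transcription factors 4 rose and 0 fell (median 0.27), 2 to 3 rose when 1 control array was left out, and Hnf4a, the central one, did not pass (0.34, SE 0.12, adjusted p = 0.0916). The calls of Cebpa, Foxa1 and Zbtb20 in that list were each lost without any 1 of 2 or more control arrays (adjusted p up to 0.0699, 0.0755 and 0.0993).

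Of 11 DNA methylation and chromatin genes 3 fell and 0 rose (median -0.16, and -0.09 without day 21 replicate C). Ezh2, the methyltransferase of Polycomb, fell by 0.71 (SE 0.09) and Uhrf1, which guides maintenance methylation to replicating DNA, by 0.73 (SE 0.13). Dnmt3a fell by 0.32, a call lost without day 21 replicate C or day 450 replicate A (adjusted p up to 0.0864).

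In the extracellular matrix list, which holds collagens and their partners, 13 of 26 measured members fell and 0 rose (median -0.39), 7 of them more than 2-fold, and 12 or 13 fell without any 1 control array. Sparc, which binds collagen during assembly, went from 11.97, 12.09 and 11.96 to 10.42, 10.56 and 10.40 (change -1.54, SE 0.08, adjusted p = 1.66e-08). Col3a1, a fibrillar collagen, went from 10.84, 10.72 and 10.55 to 8.78, 9.21 and 8.98 (change -1.71, SE 0.12, adjusted p = 1.54e-07). The gap between the ages was wider than the span of either age in both genes. Eln, elastin, fell by 1.13 (SE 0.12), Fbn1, the fibrillin of microfibrils, by 1.13 (SE 0.10), Loxl2, which crosslinks collagen, fell by 1.23 (SE 0.08), Col1a2 by 1.13 (SE 0.11), Col14a1 by 0.96 (SE 0.11) and the basement membrane collagen Col4a1 by 0.88 (SE 0.08).

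Of 11 markers of the stellate cells and fibroblasts that make matrix, 5 fell and 0 rose (median -0.37, and -0.22 without day 450 replicate C), with list means of 8.77, 8.74 and 8.66 at day 21 and 8.44, 8.36 and 8.20 at day 450. Pdgfrb, their growth factor receptor, went from 9.26, 9.26 and 9.01 to 8.23, 8.24 and 8.24 (change -0.94, SE 0.11). Lrat, which stores vitamin A in stellate cells, fell by 1.06 (SE 0.17), Reln by 0.69 (SE 0.12) and Col1a1 by 1.02 (SE 0.13), while Des did not pass (-0.07, adjusted p = 0.730). Of 9 markers of sinusoidal endothelium 0 passed in limma (1 at an unadjusted p below 0.05, median -0.15, and -0.03 without day 450 replicate C, list means 9.06 to 9.37 and 8.999 to 9.28). Among 7 cholangiocyte markers only Cldn4 passed, and it lost its call without any 1 of 4 control arrays (adjusted p up to 0.0935). The part of stellate cell number in the fall of matrix genes was not tested.

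**Figure D3:**
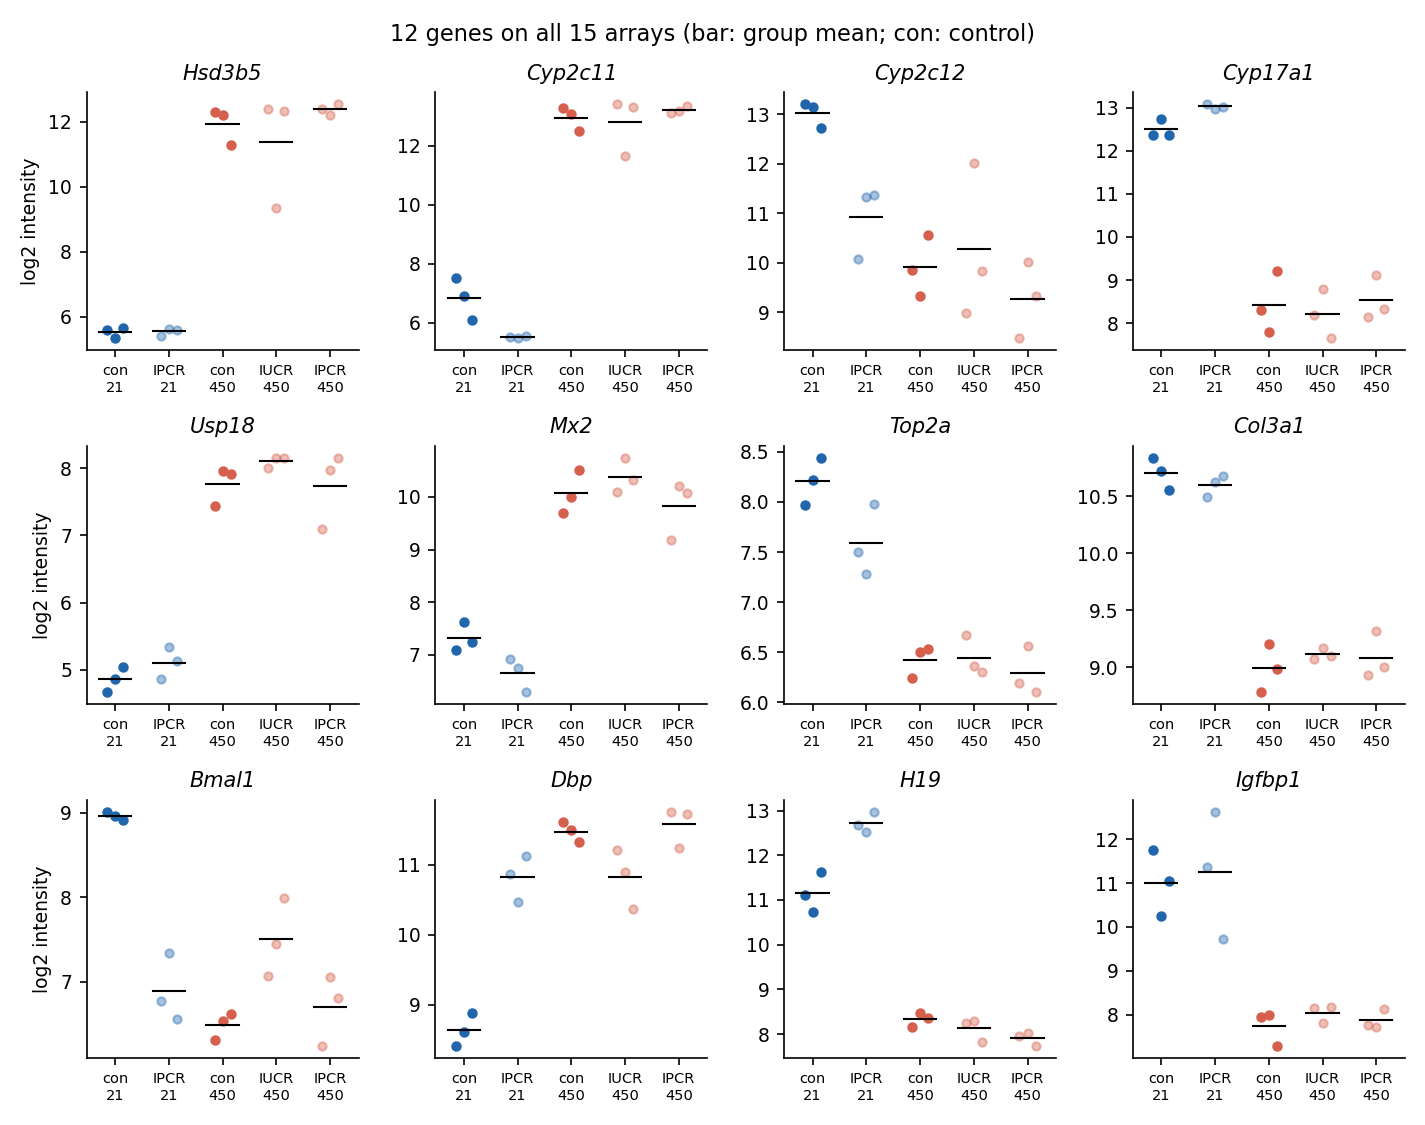
Log2 intensity of 12 genes on all 15 arrays, 1 point per rat, with a bar at each group mean (con, control; the number below is the day of life; each panel has its own axis, which does not start at 0). The 12 genes were taken from those that passed in controls, so that the control ages lie apart in all 12 is no separate finding. In Bmal1 and Dbp the IPCR rats of day 21 lie on the day 450 side of the day 21 controls.

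Genes of the pericentral zone, the hepatocytes around the central vein, fell almost as a list. Of 14 measured, 11 fell and 0 rose (median -0.64), and 7 to 10 fell when 1 control array was left out, the 7 without day 450 replicate A. The list mean was 10.13, 10.36 and 10.20 at day 21 and 9.16, 9.43 and 9.30 at day 450. Ahr, the receptor for dioxins and planar aromatics, went from 10.18, 9.98 and 9.91 to 7.82, 8.40 and 8.16 (change -1.90, SE 0.12, adjusted p = 1.05e-07). Cyp1a2, a target of AHR that oxidises caffeine and aromatic amines, went from 12.02, 12.22 and 12.05 to 10.59, 10.54 and 10.13 (change -1.68, SE 0.17). Rhbg, an ammonia channel, fell by 1.37 (SE 0.13), Lect2 fell by 1.84 (SE 0.19), and Axin2, a direct target of Wnt signalling, by 0.55 (SE 0.10). Of 14 periportal genes, the opposite zone, 2 fell and 0 rose (median -0.04, but 0.03 without day 21 replicate B and -0.11 without day 21 replicate C), 1 to 3 falling when 1 control array was left out. The larger of these was Aldh1b1, a mitochondrial aldehyde dehydrogenase, at 9.11, 8.93 and 8.99 and then at 6.48, 6.60 and 6.64 (change -2.44, SE 0.14, adjusted p = 2.76e-08).

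Enzymes of foreign compounds act in 2 phases, of oxidation and of conjugation. Among 29 phase I genes 8 fell and 2 rose (median -0.10, and -0.02 without day 21 replicate A or -0.18 without day 21 replicate C), 6 to 10 and 1 to 3 with 1 control array left out. Cyp2b2, induced by phenobarbital, went from 11.64, 11.58 and 11.48 to 7.84, 8.87 and 7.30, an 11.8-fold fall (change -3.56, SE 0.33, adjusted p = 4.46e-06), with the old rats far more spread than the young. Its neighbour and near copy Cyp2b1 fell by 1.67 (SE 0.31). Fmo1, a flavin monooxygenase, fell from 11.34, 11.61 and 11.58 to 8.86, 9.78 and 9.44 (change -2.15, SE 0.31), and Cyp2a3 fell by 1.02 (SE 0.10), while Cyp3a62 rose by 0.98 (SE 0.15). Phase II, the conjugating enzymes, gave 5 rises and 2 falls of 20 (median 0.08, but -0.03 without day 450 replicate B), 4 to 5 and 1 to 3 with 1 control array left out. Sult1c3 and Sult1b1, sulfotransferases, rose by 2.04 (SE 0.32) and 1.31 (SE 0.25), and the glutathione transferases Gstm3 and Gstm2 by 1.57 (SE 0.17) and 1.08 (SE 0.12). Ugt2b1, a glucuronosyltransferase, fell from 12.17, 11.89 and 11.51 to 9.97, 10.03 and 10.08 (change -1.83, SE 0.13, adjusted p = 3.73e-07).

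Of 23 sterol export and bile acid genes 8 fell and 1 rose (median -0.33, and -0.54 without day 450 replicate B), the falls ranging from 6 to 11 when 1 control array was left out. Abcg5, 1 of the paired transporters that send cholesterol and plant sterols into bile, went from 9.53, 9.66 and 9.69 to 7.57, 7.67 and 7.28 (change -2.12, SE 0.16, adjusted p = 5.26e-07). Its partner Abcg8, the adjacent gene, fell by 1.64 (SE 0.17). Abcc3, an exporter of bile acid conjugates to blood, went from 10.31, 9.67 and 9.86 to 7.67, 8.18 and 8.14 (change -1.95, SE 0.27). Cyp7a1, the rate-limiting enzyme of bile acid synthesis, fell by 1.37 (SE 0.25), with day 450 replicate C at 10.69 close to the lowest day 21 rat at 10.94. The phospholipid exporter Abcb4 fell by 0.55 and Amacr, a racemase of bile acid precursors, by 0.64. The single rise, Cyp7b1 (1.43), lost its call without any 1 of 4 control arrays (adjusted p up to 0.0936). Of 19 cholesterol synthesis genes 0 passed in limma (7 at an unadjusted p below 0.05), with every measured change below 0 (from -1.06 to -0.03) and a median of -0.35; 1 passed without day 450 replicate C and 1 with the replicate letter as a block.

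Of 28 genes of fatty acid oxidation and ketone synthesis 9 rose and 1 fell (median 0.23), and 6 to 8 rose without 1 control array. Eci1, an isomerase needed to oxidise unsaturated fat, went from 8.96, 9.26 and 9.44 to 10.38, 10.36 and 10.15 (change 1.08, SE 0.18). Cyp4a3 and Cyp4a1, omega-hydroxylases of fatty acids, rose by 1.25 (SE 0.24) and 0.81 (adjusted p = 0.0050), and Cpt1a, which admits fatty acids to mitochondria, by 0.63 (SE 0.13). Acadm and Acadl, acyl-CoA dehydrogenases, rose by 0.52 and 0.42, and Bdh1, which makes the ketone body hydroxybutyrate, fell by 0.58. Fatty acid synthesis had 5 rises and 3 falls of 20 (median 0.23, but 0.06 without day 450 replicate C and 0.45 without day 450 replicate A), with 3 rises without day 21 replicate A and 1 rise without any 1 of 4 other control arrays, day 450 replicate A being the exception with 6. The falls numbered 0 to 3 when 1 control array was left out. Day 450 replicate A was the rat that stood apart there, with a list mean of 10.31 against 11.04 in B and 11.15 in C. Pnpla3, a lipase regulated by feeding, was at 8.42, 10.60 and 11.48 against 7.71, 7.67 and 7.81 at day 21, and Fasn, fatty acid synthase, at 10.76, 12.21 and 12.15 against 10.53, 10.22 and 10.01. Both calls were lost without 5 of the 6 control arrays in turn (adjusted p up to 0.148 and 0.167). Acacb, the acetyl-CoA carboxylase that restrains oxidation, rose by 1.55 (SE 0.26) and passed in every leave-one-out fit.

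Of 19 gluconeogenesis and glycogen genes 3 rose and 2 fell (median 0.08, and -0.02 without day 21 replicate C), 1 to 5 and 1 to 2 with 1 control array left out. Gys2, the glycogen synthase of liver, rose from 9.40, 9.34 and 9.42 to 10.43, 10.11 and 10.005 (change 0.79, SE 0.10), and Ppargc1a, a coactivator of fasting metabolism, fell from 8.70, 7.82 and 7.91 to 6.49, 6.70 and 6.33 (change -1.64, SE 0.23). Among 26 glycolysis and hexose genes 2 rose and 3 fell, against 4.67% and 5.22% of all genes. With 1 control array left out 1 to 3 rose and 1 to 3 fell. Slc2a5, the fructose transporter, rose by 1.20 (SE 0.24) and Pfkfb1, which sets fructose bisphosphate levels, fell by 1.11 (SE 0.22). Amino acid breakdown and the urea cycle had 7 falls and 0 rises of 28 (median -0.17), 4 to 11 falls without 1 control array and 11 after quantile normalization. Prodh, of proline, fell by 1.02 (SE 0.20), Gldc, of glycine, by 0.66 (SE 0.12) and Hgd, of tyrosine, by 0.46 (adjusted p = 0.0052). Of 32 oxidative phosphorylation genes 2 fell, against 5.22% of all genes (median -0.13, and -0.08 without day 450 replicate C). They were Atp5f1a, whose call was lost without any 1 control array, and Ndufa9, whose call was lost without any 1 of 5.

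Of 27 lipoprotein and lipase genes 2 rose and 1 fell, against 4.67% and 5.22% of all genes. The list median was 0.02, but -0.09 without day 21 replicate C and -0.03 after quantile normalization. Without day 21 replicate C 3 members fell. Apoa2, a main protein of high-density lipoprotein, went from 10.26, 10.02 and 9.58 to 12.43, 12.63 and 12.42, a 5.83-fold rise (change 2.54, SE 0.17, adjusted p = 1.05e-07), and Apoa4 from 11.06, 10.32 and 10.41 to 11.98, 12.09 and 11.9997 (change 1.43, SE 0.16). Mttp, which loads lipid onto apolipoprotein B, fell by 0.58. Of 32 coagulation and complement genes 4 rose and 3 fell, 2 to 5 and 0 to 2 without 1 control array, and the clearest were C9 (0.73) and C4bpa (0.64), both complement proteins. Among 20 acute phase genes 2 rose and 1 fell, 1 to 4 and 1 to 2 with 1 control array left out. The fall was A2m, a protease inhibitor that rat liver makes in fetal life and inflammation, from 11.68, 11.54 and 11.65 to 8.69, 7.44 and 8.10 (change -3.55, SE 0.27, adjusted p = 4.70e-07). Serpina3n, another protease inhibitor, rose by 0.51 (adjusted p = 0.0069).

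Other large falls were spread over transport and lipid signalling. Alox15, which makes lipid mediators from arachidonate, went from 10.46, 11.53 and 11.12 to 7.44, 8.07 and 7.69 (change -3.30, SE 0.29). Slc6a6, the taurine transporter, went from 10.82, 10.20 and 9.89 to 7.59, 7.58 and 7.57 (change -2.72, SE 0.24). Its old rats had nearly equal levels while the young were spread out. Aqp7, a glycerol channel, fell by 2.17 (SE 0.13) and Abcd2, a peroxisomal importer of very long chain fatty acids, fell by 2.45 (SE 0.19).

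Of 27 heat shock and unfolded protein genes 6 rose and 0 fell (median 0.08, and 0.05 without day 21 replicate B), 3 to 6 without 1 control array. Hspb1, a small heat shock protein, rose from 6.55, 6.47 and 6.54 to 8.54, 7.65 and 7.79 (change 1.47, SE 0.21), and the chaperone partners Hsph1 and Dnajb1 by 0.67 and 0.54. Among 22 antioxidant genes 2 rose, against 4.67% of all genes: Nfe2l2, the NRF2 regulator (0.88, SE 0.13), and Prdx5, a peroxiredoxin (0.39). In the iron list 1 of 21 rose (0 to 3 without 1 control array) and 2 fell, Steap3, a ferrireductase, by 1.00 (SE 0.13) and Tfrc, the transferrin receptor, which fell by 1.39 (SE 0.30) and, without day 21 replicate C, fell by 0.92. Dio1, the deiodinase that activates thyroid hormone, fell from 11.07, 10.99 and 11.07 to 10.14, 10.30 and 9.96 (change -0.91, SE 0.13), 1 of 2 falls beside 2 rises (0 to 3 without 1 control array) among 16 retinoid and thyroid genes.

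Both arms of the clock differed between the ages. In the BMAL1 arm 3 of 5 measured genes were lower and 0 higher at day 450 (median -0.44), and in the PER/DBP arm 9 of 12 were higher and 0 lower (median 0.90). Clock genes swing through the day, and the hour of collection was not given, so age and hour cannot be told apart here. Bmal1 was at 9.01, 8.96 and 8.92 at day 21 and at 6.31, 6.53 and 6.62 at day 450, a 5.57-fold difference (change -2.48, SE 0.23, adjusted p = 4.46e-06). Its partner Npas2 was lower by 1.17 (SE 0.22), at 8.91, 8.58 and 8.65 against 7.21, 7.72 and 7.70. Within an age the rats lay close together in both genes. Nfil3, a repressor of DBP targets, was lower by 0.44, a call lost without 4 of the 6 control arrays in turn (adjusted p up to 0.184 over all settings). Cry1 (-0.26, adjusted p = 0.150) and Clock (-0.18, adjusted p = 0.318) did not pass.

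The other arm was higher by amounts from 0.54 to 2.84. Dbp, a transcription factor at the clock's output, was at 8.41, 8.60 and 8.89 at day 21 and at 11.60, 11.49 and 11.32 at day 450, a 7.16-fold difference (change 2.84, SE 0.21, adjusted p = 3.44e-07). Per3, a period gene, was at 7.17, 7.82 and 7.72 and then at 9.22, 8.96 and 8.96 (change 1.47, SE 0.23). Nr1d1, the REV-ERB alpha repressor of Bmal1, was at 8.88, 9.54 and 9.53 and then at 10.62, 10.82 and 10.41 (change 1.30, SE 0.15). All 3 genes had no overlap, with day 21 replicate A lowest in each. Per2 was higher by 1.22 (SE 0.21), Nr1d2 by 0.95 (SE 0.09), Bhlhe41, a repressor, by 0.86 (SE 0.16), Tef, a relative of DBP, by 0.82 (SE 0.12) and Cry2 by 0.54 (SE 0.12). Bhlhe40 was higher by 0.96 (SE 0.24), a call lost without replicate B of either age (adjusted p 0.0853 and 0.0898). Usp2 (0.46, adjusted p = 0.180), Wee1 (0.38, adjusted p = 0.220) and Per1 did not pass, and Per1 overlapped at 8.08, 7.78 and 7.499 against 7.77, 7.84 and 7.84.

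Stretches of the Tef, Bhlhe41 and Per2 promoters are shown because they carry the 2 elements through which the clock is known to act. The E-box bound by BMAL1, CACGTG, was present in the 250 bases before the start of 3 of 11 PER/DBP arm genes with a promoter (27.3%), against 6.93% of all promoters, and the D-box bound by DBP and TEF, TTATGTAA on either strand, in 1 of 11 (9.09%) against 0.711%. Capitals mark the E-box in Tef (chr7:115206589-115206674, plus strand, 193 bases before the start) and Bhlhe41 (chr4:180569358-180569443, minus strand, 43 bases before it), and the D-box in Per2 (chr9:99497138-99497225, minus strand, 185 bases before it), in RefSeq GRCr8. Elements farther away or inside the genes were not searched.
Tef: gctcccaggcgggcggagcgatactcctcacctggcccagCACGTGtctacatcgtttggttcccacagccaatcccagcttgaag
Bhlhe41: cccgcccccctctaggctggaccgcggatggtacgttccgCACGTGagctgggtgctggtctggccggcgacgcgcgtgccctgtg
Per2: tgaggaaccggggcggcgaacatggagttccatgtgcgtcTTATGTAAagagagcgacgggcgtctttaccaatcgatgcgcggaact

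Some of the changed genes are neighbours in the genome. Among 14481 genes placed by RefSeq, 8 pairs of measured genes next to each other both changed by more than 2-fold, and 7 of the 8 went the same way. In all, 216 genes (1.49%) passed 2-fold, and 16 of these (7.41%) lay in such pairs. A gene has a neighbour on each side, so these percentages are not measured alike. The share in pairs to be met without any clustering was not computed. The pairs are given for what they are, since they were found by scanning the results, and Phf11, Phf11b, Ifi27 and Ifi27l2b are named for that reason alone. They were Cyp2b1 and Cyp2b2, Cyp1a1 and Cyp1a2, Abcg5 and Abcg8 (all lower), and Akr1c1 and Akr1c2, Gstm2 and Gstm3, Phf11 and Phf11b, and Ifi27 and Ifi27l2b (all higher). Cyp1a1 lost its call without any 1 of 3 control arrays (adjusted p up to 0.0678). The pair that went opposite ways was Cyp2c12, lower by 3.11, and Cyp2c13, higher by 6.13. Most of these are duplicated genes of similar sequence, whose probes may be shared.

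The same age step in IPCR rats shares no array with the control comparison. There 4070 genes (28.1%) passed, 2652 higher (18.3%) and 1418 lower (9.78%, and 942 without IPCR day 21 replicate A). Genes called in both and in the same direction numbered 868, which is 60.5% of the control calls and 21.3% of the IPCR calls, and 40 were called in opposite directions. A test of the difference between the age changes passed for 1189 genes (8.20%), of which 287 were also called in controls. That count fell to 606 without IPCR day 21 replicate A, 642 without IPCR day 450 replicate C, 712 without IPCR day 21 replicate B, 762 without control day 21 replicate B and 781 without control day 21 replicate A.

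In IPCR rats the male-biased, interferon, cell division and matrix lists again gave many calls. Male-biased genes gave 9 rises of 10 there, interferon genes 21 rises and 1 fall of 26, cell cycle genes 30 falls of 40 and matrix genes 13 falls of 26, and the difference itself passed for 2 members of each of these 4 lists, against 8.20% of all genes. For cell cycle genes it passed for 9 without IPCR day 21 replicate C, and for 1 to 3 members of each of the other 3 lists with any 1 of the 12 arrays left out. Female-biased genes gave 3 rises and 4 falls of 9 there, but 2 or 3 falls with any 1 of the 12 arrays left out. Akr1b7, which fell by 3.79 in controls, was not called in IPCR rats (-0.71, adjusted p = 0.268, and 0.0094 for the difference). Usp18 rose by 2.91 in controls and by 2.63 in IPCR rats (difference -0.28, SE 0.31, adjusted p = 0.606). Col3a1 changed by -1.71 and -1.51 (difference 0.20, SE 0.16, adjusted p = 0.475). A difference that did not pass does not show that the changes were equal.

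Some lists held many genes whose change differed from that in controls. Cholesterol synthesis had 0 of 19 called in controls and 16 higher with age in IPCR rats, and the difference passed for 16. The mean of the list in IPCR rats of day 21 was 8.499, 8.68 and 9.81, with C apart from the others, and at day 450 it was 10.26 to 10.29. In controls it was 10.39, 10.37 and 10.53 at day 21 and 9.87, 9.89 and 10.25 at day 450. The IPCR rats thus lay below the controls at day 21 and slightly above them at day 450. With any 1 of the 12 arrays left out 14 to 17 members differed, 17 without IPCR day 21 replicate C. Idi1, an early isoprenoid enzyme, changed by -1.06 in controls and by 1.99 in IPCR rats (difference 3.05, SE 0.62, adjusted p = 0.0083). In the clock the difference passed for 4 of 5 genes of the BMAL1 arm and 6 of 12 of the PER/DBP arm, 3 to 4 and 4 to 6 with 1 array left out. Bmal1 changed by -2.48 in controls and by -0.19 in IPCR rats (difference 2.29, SE 0.33, adjusted p = 9.77e-04), and Dbp by 2.84 and 0.75 (difference -2.09, SE 0.29, adjusted p = 7.92e-04). Pericentral genes gave 8 falls and 1 rise in IPCR rats with a difference for 5 of 14, or 3 without control day 21 replicate B or IPCR day 21 replicate A or B or day 450 replicate C. Ahr fell by 1.90 in controls and by 0.86 in IPCR rats (difference 1.03, SE 0.18, adjusted p = 0.0030). Pdgfrb of stellate cells fell by 0.94 in controls and changed by -0.08 in IPCR rats (difference 0.86, SE 0.16, adjusted p = 0.0048). Antigen presentation genes gave 11 rises in IPCR rats, against 4 in controls, with a difference for 7 of 19 (5 to 7 with 1 array left out). Phase I genes differed in 10 of 29 (7 to 11) and fatty acid synthesis genes in 8 of 20 (5 to 12). Gluconeogenesis and glycogen genes differed in 6 of 19 (5 to 6). Growth genes differed in 8 of 20 (6 to 8). Ghr rose by 0.56 in controls and by 1.53 in IPCR rats (difference 0.97, SE 0.14). Among fetal and imprinted genes 4 of 16 differed, and H19 changed by -2.83 and -4.82 (difference -1.98, SE 0.27, adjusted p = 6.25e-04). These differences compare an age step that starts from unrestricted rats with one that starts from rats under restriction. Of the genes named in this paragraph, the plot of 12 genes on all arrays shows the group levels of Bmal1, Dbp and H19. Idi1, Ahr, Pdgfrb and Ghr are not plotted, so which end sets their difference is not shown.

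**Figure D4:**
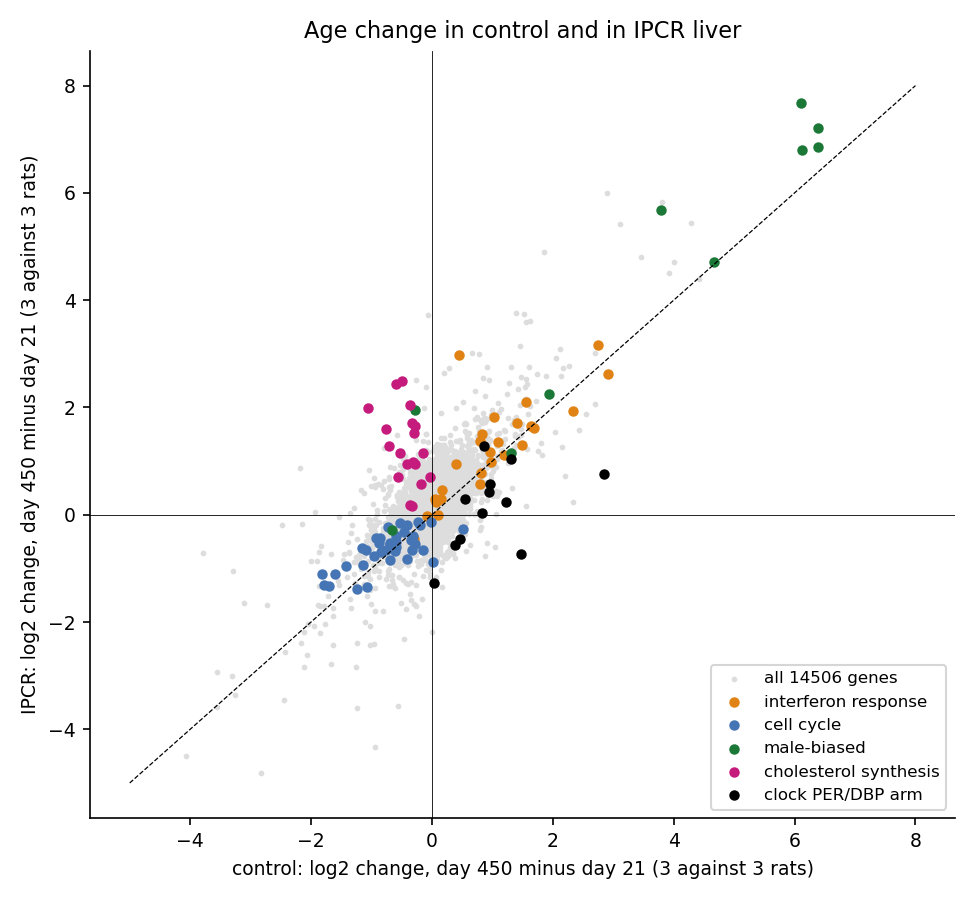
Log2 change from day 21 to day 450 in control liver (x axis) against the same step in IPCR liver (y axis), 3 against 3 rats each with no array in common, for all 14506 genes (grey) and 5 lists (colours), with a dashed line at equality. Interferon, cell cycle and male-biased genes lie mostly along the line, cholesterol synthesis genes above it, and PER/DBP genes mostly below it, such as Dbp at 2.84 and 0.75.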

How the data were processed

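The deposited values are log2 intensities made by the authors with RMA in Affymetrix Expression Console, per the submitters' processing notes, from liver RNA on Rat Gene 1.0 arrays. Versions of that software, and scan dates, were not used here. Of 29215 probe sets, 15310 carried 1 gene symbol in the platform annotation, 323 several and 13582 none. Probe sets with 1 symbol were kept, and for 527 genes with more than 1 the probe set with the highest mean was used, leaving 14506 genes. Group means of all 15 arrays (5 groups of 3) entered 1 linear model with 10 residual degrees of freedom (limma 3.58.1, R 4.3.3). P-values were adjusted by Benjamini and Hochberg over all genes, at a threshold of 0.05. In simulated data the method found 74% of log2 changes of 0.5 and 96% of changes of 1. Of the calls 6.33% and 4.48% were false. Intensity gives no count or depth, so the number of arrays limits the precision, and large differences tend to be understated.

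Gene lists (46, with 774 of 891 members measured) and markers were chosen with earlier results of these data known, and are described by counts and medians without a test of the list. Genes named are the 15 largest rises and falls whose arrays do not overlap, up to 8 members of each list by p, all clock genes and the 10 smallest p of the difference; Alb, Car3, Igf1 and 4 genes of neighbouring pairs were named outside that rule, after their values were seen. Symbols that are only locus numbers and receptors of smell and taste were not named. Promoters are RefSeq's (GRCr8).

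The alternatives were centring, quantile normalization, genes above the median level only, the replicate letter as a block, each array left out, only the 6 control arrays, the mean of probe sets, and moderation with trend and robust options. Same-letter arrays did not deviate together (correlations -0.04, -0.09 and -0.06 for A, B and C), and nothing states that the letter marks a litter, so the letters were not used to pair rats.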

Additional observations from a re-analysis of the deposited data

Results flagged for a closer look

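The 10 genes with the smallest p for a difference between the IPCR and control age changes are given as values, each as the IPCR change minus the control change on the log2 scale. The pattern reversed direction in Nrep, a neuronal regeneration protein (3.05, from -2.18 in controls to 0.87 in IPCR rats), in Slc17a3, a urate and phosphate transporter (1.59, from -0.70 to 0.89), and in Hdc, which makes histamine (-1.66, from 0.88 to -0.78). It was larger in IPCR rats for Pigr, the polymeric immunoglobulin receptor (3.04, from 1.85 to 4.89), for Esr1, the estrogen receptor (2.36, from 1.40 to 3.76), and for Igfbp2, a carrier of insulin-like growth factors (-3.39, from -0.94 to -4.33).

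In the other 4 genes the control change did not pass: Igfals, which holds circulating IGF1 in its complex (2.47, from 0.28 to 2.74), Arrdc3, an arrestin relative (2.77, from -0.26 to 2.51), Lpl, lipoprotein lipase (-2.996, from -0.56 to -3.56), and Serpina3c, a protease inhibitor (1.76, from 0.14 to 1.91). The genes were picked by that p, so that they passed is no separate finding.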

How the results depend on the processing

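The count of 1434 genes in the control comparison moved by less than 1.5 times under the alternatives run on all genes: 1427 after centring, 1721 after quantile normalization (869 higher and 852 lower), 1154 with only the control arrays, 1438 with the mean of probe sets, 1438 with trend and robust moderation, and 1025 to 1164 with 1 array left out. Testing only genes above the median level gave 1279, of which 1067 were shared with the main result. That count comes from a smaller set of genes and cannot be set beside 1434. With the replicate block there were 1340, of which 1291 were shared with the main result. The IPCR count of 4070 was 3648 after quantile normalization, 3949 with the replicate block and 2951 to 4080 with 1 array left out (942 lower instead of 1418 without IPCR day 21 replicate A). The 1189 genes of the difference became 790 after quantile normalization and 606 to 1546 with 1 array left out; with the replicate block there were 1091. The cause was not tested.

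Of 202 named genes past the threshold 60 lost their call under at least 1 alternative and 0 turned direction. With 1 array left out the median of gluconeogenesis and glycogen genes was -0.0172 (without control day 21 replicate C) to 0.1468. That of phase II genes was -0.0253 (without control day 450 replicate B) to 0.1148, and -0.0062 after quantile normalization. That of periportal genes was -0.1123 to 0.0274, and that of lipoprotein and lipase genes -0.0921 to 0.0432. With 3 rats per age, unknown litters and an unknown hour of collection, the comparison describes these rats. Low signals may be background, and members of close gene families may share probes.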
